A study of Rattus norvegicus with 27 samples.

Results

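The genes of MHC class II presentation and their activators were followed in rat oligodendrocyte precursor cells (OPCs), the dividing glial progenitors that give rise to myelinating oligodendrocytes. The set held 9 genes: Ciita and Rfx5, which encode activators, RT1-Da, RT1-Db1, RT1-Ba and RT1-Bb, which encode the chains of the rat class II molecules, Cd74, which encodes the invariant chain, and RT1-DMa and RT1-DMb, which encode the peptide loading factor. Every probe set whose platform annotation gives only the symbol of a listed gene was used, which gave 15 of 31042 probe sets tested. RT1-Ba had 4 of them, Ciita, RT1-Db1 and RT1-Bb had 2 each, and the other genes had 1 each, so probe sets of the same gene are not separate genes. The 27 arrays came from cultures of 3 donors in 9 groups. OPCs were selected with magnetic beads against the surface marker A2B5 from cerebral cortices of Sprague-Dawley rat pups on postnatal day 4 to 6, and were expanded for 3 to 4 days in PDGF-AA (20 ng/mL) with noggin. The PDGF group was taken at 0 h. The T3 groups were taken after 8, 24, 48 and 96 h in thyroid hormone (T3, 10 nM), which starts differentiation, and the T3+IFNγ groups after the same times in T3 together with rat recombinant interferon-γ (IFNγ, 10 ng/mL). At a given time T3+IFNγ cultures differ from T3 cultures by the cytokine, and this comparison asks how it changes class II expression while the cells differentiate. PDGF arrays exist at 0 h only, so the effects of T3, of PDGF withdrawal and of time in culture cannot be told apart in the comparison with them. The cells are a bead-selected culture, not a single cell type, and cultures with IFNγ but no T3 are not analysed here.

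Class II molecules present peptides from endocytosed protein to CD4 T cells and are characteristic of professional antigen presenting cells, while most other cells make them only after a signal such as IFNγ. IFNγ acts through JAK kinases and IRF1 on the Ciita gene, and CIITA protein, which does not bind DNA itself, then docks on a promoter complex of the RFX factors with RFX5, CREB and NF-Y, which is assembled over the X and Y boxes of class II genes. An α and a β chain pair with the invariant chain, which fills the groove and guides the complex to endosomes, and DM there exchanges its remaining fragment for peptides. In the rat, RT1-Da and RT1-Db1 encode the α and β chain of the RT1.D molecule, the counterpart of human HLA-DR, and RT1-Ba and RT1-Bb those of RT1.B, the counterpart of HLA-DQ.

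Because the activators act through the X and Y boxes, the stretch holding an X-type half-site and a Y box is shown for the 5 genes in which both were found. RefSeq promoter windows (assembly GRCr8, 250 bases before to 50 after the annotated start) were available for 7 of the 9 genes and were searched for GNNACNG followed 25 to 40 bases later, counted between first letters, by ATTGG, the Y box core, read in the direction of the gene. Both motifs are in capitals, each line is written 5′ to 3′ on the strand of its gene, and the sequences are those of the reference assembly, not of the cultured cells.
RT1-Da (chr20:4515325-4515378, + strand): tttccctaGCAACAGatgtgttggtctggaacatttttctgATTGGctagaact
RT1-Db1 (chr20:4560230-4560282, − strand): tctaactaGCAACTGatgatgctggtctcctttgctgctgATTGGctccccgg
RT1-Ba (chr20:4576973-4577026, + strand): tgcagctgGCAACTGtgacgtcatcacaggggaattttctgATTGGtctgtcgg
RT1-Bb (chr20:4604167-4604219, − strand): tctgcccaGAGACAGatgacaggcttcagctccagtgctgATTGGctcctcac
RT1-DMa (chr20:4712387-4712440, − strand): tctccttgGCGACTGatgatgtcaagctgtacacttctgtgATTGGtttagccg

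The pair of motifs lay upstream of the start in all 4 chain genes and in RT1-DMa, with 32 or 33 bases from the first letter of the half-site to the first letter of the Y box. The half-site began between 112 bases (RT1-Db1) and 76 bases (RT1-Ba) before the start. RT1-Db1 and RT1-Ba share the same half-site letters. The window of Cd74 and both windows of Rfx5 hold ATTGG on one of the strands but not this pair. No window was at hand for RT1-DMb or Ciita. The pair was found in 503 of 33469 promoter windows of all genes in the direction of the gene (1.5%) and in 2.91% when both strands were searched, and ATTGG alone occurred on either strand in 37.5%. The letters were chosen after these sequences had been seen, and a match describes a sequence and does not show that a factor binds there.

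**Figure D1:**
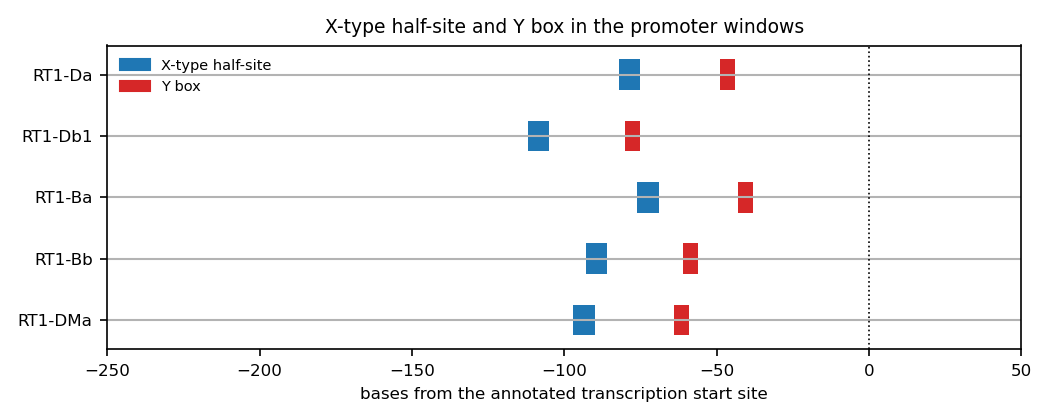
Position of the X-type half-site (blue) and the Y box (red) in the promoter windows of 5 genes, with the horizontal axis in bases from the annotated transcription start site (dotted line). In every window the half-site lies 32 or 33 bases upstream of the Y box, and the first letters of all motifs lie between 112 and 43 bases before the start.

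Signals are RMA values on the log2 scale, so a difference of 1 is a doubling. A probe set was called higher or lower in a comparison at a limma adjusted p under 0.05, adjusted over all 31042 probe sets. Differences are on the log2 scale with the standard error (SE) of the fit. Levels of different probe sets cannot be set against each other, so only differences are compared between genes. The size of a difference also depends on the probe set, as for RT1-Db1 at 24 h, with changes of 5.78 and 1.36 by probe set. Rankings by size between genes are therefore rankings of probe sets. Group values are means ± SD of 3 donors, and the number of arrays limits the precision. On the array of T3+IFNγ at 8 h from donor 2, the 3′ control probe set of Gapdh exceeded the 5′ set by 0.37, against −0.26 to 0.11 on the other 26 arrays, and the results at 8 and 24 h that change without that donor's T3+IFNγ arrays of these times are named below. In RNA of whole cultures, a change in the number of cells of a type and a change in RNA per cell cannot be told apart.

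With IFNγ, most class II probe sets rose at every time. Of the 15 probe sets, 10 were called higher at 8 h, against 2.7% of all probe sets tested, 12 at 24 h (background 4.28%), 12 at 48 h (background 5.64%) and 13 at 96 h (background 5.51%), and none was called lower. The median change of the 15 was 1.16, 2.68, 2.46 and 2.32 at the 4 times, beside medians of all probe sets of −0.03, −0.04, −0.05 and −0.04. RT1-Da, the α chain of RT1.D, changed most, and only a pair of RT1-Ba probe sets was never called. With the brightest probe set standing for each gene, 6, 7, 8 and 8 of the 9 genes were called higher.

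**Figure D2:**
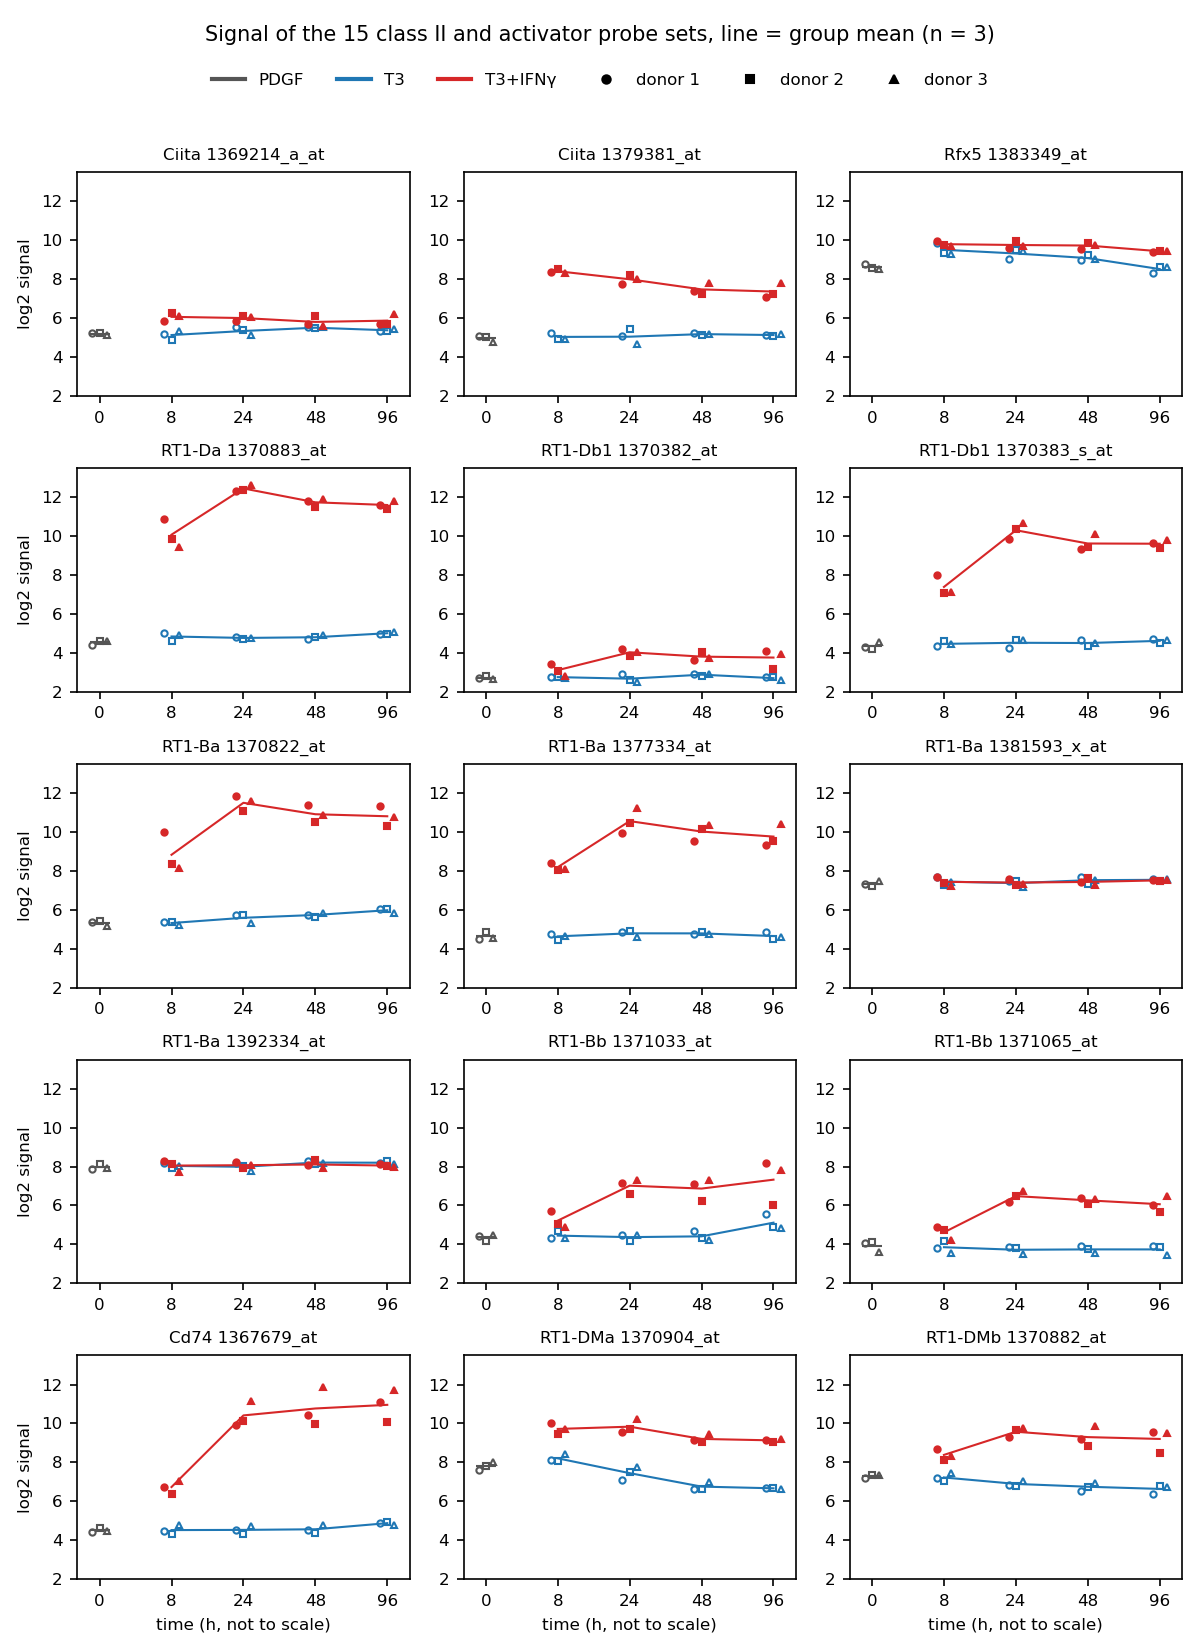
Log2 signal (vertical axes) of the 15 probe sets in PDGF at 0 h (grey), T3 (blue) and T3+IFNγ (red) against time in h, with points for 3 donors and lines for group means. From 24 h on the T3+IFNγ points lie above all T3 points of the same time, by little for Ciita 1369214_a_at and Rfx5. The exceptions are RT1-Ba 1381593_x_at and 1392334_at, where the points overlap. How many of all probe sets are separated in this way was not counted.

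Ciita encodes the master regulator of class II transcription. Its probe set 1379381_at had its highest T3+IFNγ signal at 8 h in all 3 donors. It had log2 signals of 5.11, 5.05 and 4.79 in PDGF and, with T3 at 8 h, 5.25, 4.92 and 4.94 in donors 1, 2 and 3. With T3+IFNγ it had 8.38, 8.55 and 8.31 at 8 h. All IFNγ-treated cultures therefore lay far above all others at that time, and the donors differed little. The change was 3.38 at 8 h (SE 0.18, 10.4-fold, limma adjusted p = 2.09e-12, higher in 3 of 3 donors), 2.95 at 24 h, 2.30 at 48 h and 2.24 at 96 h (SE 0.18 each, limma adjusted p = 2.16e-11, 2.27e-09 and 3.16e-09). Its largest change fell at 8 h in donors 1 and 2 and at 24 h in donor 3. In T3+IFNγ cultures the signals at 96 h were 7.08, 7.23 and 7.79, below those at 8 h in every donor and without overlap with the T3 cultures (5.07 to 5.17).

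The other Ciita probe set, 1369214_a_at, whose suffix marks probes shared by several transcripts of a gene, also had higher signals with IFNγ, but with far smaller changes and no common peak, since its highest T3+IFNγ signal fell at 24, 8 and 96 h in donors 1, 2 and 3. It changed by 0.94 at 8 h (SE 0.16, limma adjusted p = 0.00031), 0.67 at 24 h (limma adjusted p = 0.0069) and 0.50 at 96 h (limma adjusted p = 0.0448), and by 0.30 at 48 h, which was not called (limma adjusted p = 0.263). The T3 and T3+IFNγ donors did not overlap at any time, but by little at 48 h, with 5.47 to 5.54 against 5.60 to 6.13. The call at 8 h was lost without donor 2 (change 0.69, limma adjusted p = 0.0913). The call at 24 h was lost without donor 2 or donor 3 (limma adjusted p = 0.0813 and 0.158), and that at 96 h was lost when any single donor was left out.

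Rfx5, the subunit that lets the RFX complex contact CIITA, had changes with IFNγ that were largest at the end. With T3 its signals were 9.88, 9.36 and 9.30 at 8 h, then 8.30, 8.63 and 8.64 at 96 h. With T3+IFNγ they were 9.97, 9.74 and 9.70 at 8 h, then 9.42, 9.46 and 9.43 at 96 h. The groups overlapped at 8 h and were apart from 24 h on. At 24 h the T3 signals were 9.01, 9.48 and 9.48, lower than at 8 h in donor 1 only. From 24 to 96 h the T3 signals fell in every donor, and the T3+IFNγ signals fell less. The change with IFNγ was 0.29 and 0.44 at 8 and 24 h, not called (SE 0.15, limma adjusted p = 0.464 and 0.0734), and Rfx5 was called higher at 48 h with 0.64 (limma adjusted p = 0.00456) and at 96 h with 0.91 (limma adjusted p = 0.000128). Its change was largest at 96 h in each of the 3 donors. Without donor 2 or donor 3 the call at 48 h was lost (limma adjusted p = 0.0982 and 0.147), and without donor 1 Rfx5 was called at 8 and 24 h as well (limma adjusted p = 0.0484 and 0.0462).

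RT1-Da had the largest change of the set. Its signals were 4.43, 4.62 and 4.58 in PDGF and between 4.62 and 5.07 on all T3 arrays. With T3+IFNγ they reached 10.91, 9.86 and 9.46 at 8 h, then 12.33, 12.38 and 12.65 at 24 h. Donor 1 was highest at 8 h and lowest at 24 h, and no IFNγ-treated culture came near an untreated one. The change was 5.23 at 8 h (SE 0.22, limma adjusted p = 1.18e-14), 7.69 at 24 h (206-fold, limma adjusted p = 1.12e-17), 6.94 at 48 h (limma adjusted p = 3.96e-17) and 6.59 at 96 h (limma adjusted p = 1.06e-16), higher in 3 of 3 donors at each time and largest at 24 h in all of them.

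RT1-Db1, the β chain that pairs with RT1-Da, was read by a pair of probe sets that differ in size of change. For 1370383_s_at, whose suffix marks probes that may match transcripts of related genes, signals were 4.33, 4.61 and 4.45 with T3 at 8 h. With T3+IFNγ they were 7.99, 7.07 and 7.10 at 8 h, then 9.85, 10.37 and 10.68 at 24 h. Again donor 1 was highest at 8 h and lowest at 24 h, and the groups did not overlap. Its change was 2.93, 5.78, 5.12 and 4.99 at 8, 24, 48 and 96 h (SE 0.23, limma adjusted p = 1.45e-09, 2.78e-15, 2.68e-14 and 4.78e-14). The set 1370382_at, at 2.48 to 2.91 on all T3 arrays, changed by 0.36 at 8 h, not called (SE 0.18, limma adjusted p = 0.442), and by 1.36, 0.93 and 1.06 at the later times (limma adjusted p = 1.01e-05, 0.0009 and 0.000207). Without donor 3 its call at 96 h was lost (limma adjusted p = 0.0543). With probes that may match related genes, the reading of 1370383_s_at may include RT1-Db2, which has no probe set of its own here.

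RT1-Ba, the α chain of RT1.B, gave both large changes and none, by probe set. The set 1370822_at had signals of 5.37, 5.35 and 5.22 with T3 at 8 h. With T3+IFNγ it had 10.01, 8.33 and 8.13 at 8 h, then 11.83, 11.07 and 11.59 at 24 h. The groups were far apart, and donor 1 was highest at each of the 4 times. Its change was 3.51 at 8 h, 5.91 at 24 h, 5.18 at 48 h and 4.83 at 96 h (SE 0.33, limma adjusted p = 4.95e-08, 2.51e-12, 3.45e-11 and 1.15e-10). The set 1377334_at, with T3 signals of 4.46 to 4.93, followed the same course with 3.56, 5.77, 5.24 and 5.11 (SE 0.26, limma adjusted p = 6.34e-10, 4.84e-14, 3.02e-13 and 4.87e-13), but there donor 1 was lowest at 24, 48 and 96 h. Between these sets the order of the donors thus differed, while the size of the change was similar.

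The other two RT1-Ba probe sets stayed level. The set 1381593_x_at had signals between 7.16 and 7.69 on the T3 arrays and between 7.23 and 7.69 on the T3+IFNγ arrays, and 1392334_at between 7.77 and 8.28 and between 7.74 and 8.32. The groups overlapped at every time in both. Their changes with IFNγ ran from −0.15 to 0.08 (SE 0.13), with limma adjusted p from 0.579 to 0.989. Both were designed on the same database sequence, so they are not independent readings. A rule that keeps the brightest probe set of each gene keeps 1392334_at, and RT1-Ba is then not called. Which transcripts these probes match was not tested, as probe sequences were not used here.

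RT1-Bb, the β chain of RT1.B, had smaller changes at 8 h than later. Both its probe sets had low signals, with 15.8% (1371065_at) and 23.1% (1371033_at) of all probe sets below them in PDGF. For 1371065_at the signals were 3.83, 4.16 and 3.58 with T3 at 8 h. With T3+IFNγ they were 4.89, 4.71 and 4.25 at 8 h, then 6.19, 6.50 and 6.76 at 24 h. The lowest IFNγ-treated culture at 8 h lay just above the highest T3 culture, and by 24 h the groups were clearly apart. The change was 0.76 at 8 h (SE 0.21, limma adjusted p = 0.0405) and 2.76, 2.52 and 2.32 at the later times (limma adjusted p = 8.77e-10, 4.38e-09 and 1.56e-08). The call at 8 h was lost without donor 1 (limma adjusted p = 0.3), without donor 2 (0.226), without the T3+IFNγ arrays of donor 2 at 8 and 24 h (0.171) and in a fit of the compared groups alone (0.178). The set 1371033_at changed by 0.77 at 8 h, not called (SE 0.37, limma adjusted p = 0.419), and by 2.65, 2.46 and 2.21 at 24, 48 and 96 h (limma adjusted p = 2.64e-05, 5.93e-05 and 0.000205). At 96 h its donors were far apart with T3+IFNγ, at 8.18, 6.001 and 7.81, and the call there was lost without donor 3 (limma adjusted p = 0.0668).

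Cd74, the invariant chain and class II chaperone, had the largest gain after 8 h. Its signals were 4.40, 4.63 and 4.50 in PDGF and 4.47, 4.33 and 4.76 with T3 at 8 h. With T3+IFNγ they were 6.76, 6.40 and 7.04 at 8 h, 9.93, 10.13 and 11.17 at 24 h, ending with 11.09, 10.08 and 11.70 at 96 h. All IFNγ-treated cultures were above all others, donor 3 was highest at every time, and donor 2 was lowest at 8, 48 and 96 h. The change was 2.21 at 8 h (SE 0.37, limma adjusted p = 0.000344), 5.89 at 24 h (59.1-fold, limma adjusted p = 2.91e-11), 6.21 at 48 h (limma adjusted p = 1.06e-11) and 6.08 at 96 h (limma adjusted p = 1.47e-11), higher in 3 of 3 donors. Its largest change fell at 96, 24 and 48 h in donors 1, 2 and 3.

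RT1-DMa and RT1-DMb, which encode the DM heterodimer, rose with IFNγ at every time. RT1-DMa had 8.14, 8.05 and 8.43 with T3 at 8 h, then 6.67, 6.68 and 6.65 at 96 h. With T3+IFNγ it had 10.001, 9.46 and 9.70 at 8 h, then 9.14, 9.05 and 9.20 at 96 h. The groups did not overlap, and both had lower signals at 96 h than at 8 h in every donor. Its change was 1.51, 2.39, 2.45 and 2.46 at 8, 24, 48 and 96 h (SE 0.18, limma adjusted p = 2.78e-06, 8.37e-10, 5.05e-10 and 4.02e-10).

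RT1-DMb had 7.18, 7.04 and 7.44 with T3 at 8 h. With T3+IFNγ it had 8.69, 8.12 and 8.35 at 8 h, then 9.31, 9.66 and 9.75 at 24 h. The groups were apart at every time. Its change was 1.16 at 8 h (SE 0.24, limma adjusted p = 0.00387) and 2.68, 2.55 and 2.57 later (limma adjusted p = 1.88e-08, 4.19e-08 and 3.27e-08). Without donor 1 the call at 8 h was lost (limma adjusted p = 0.0859). As for Cd74, the T3+IFNγ signal at 96 h was lowest in donor 2, at 8.50 against 9.58 and 9.53.

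**Figure D3:**
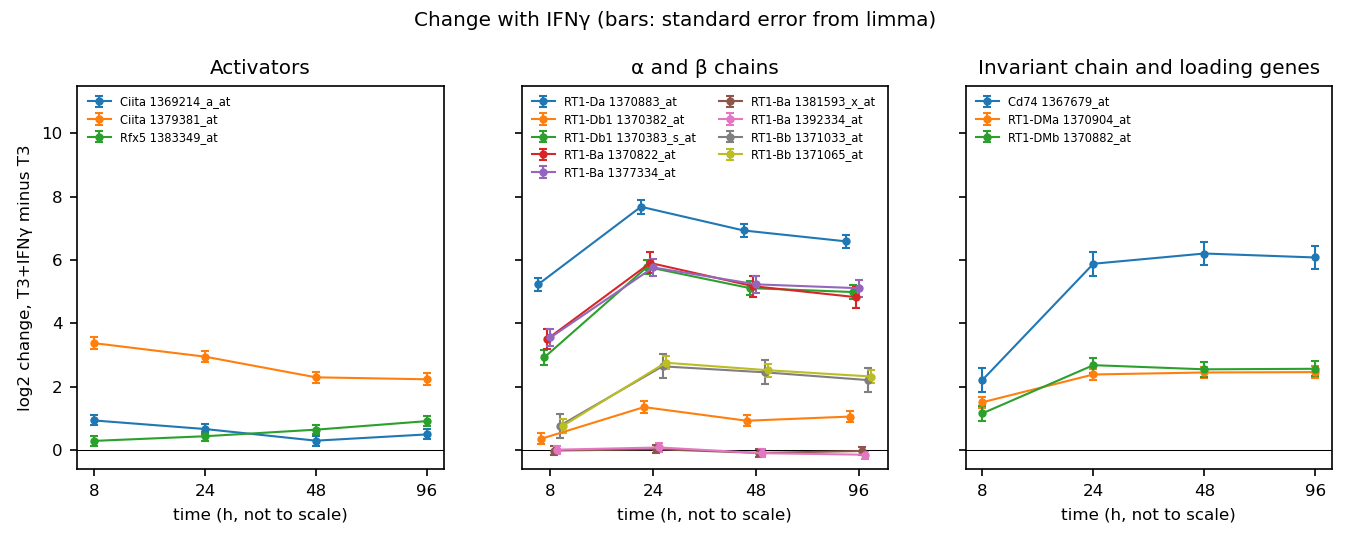
Change with IFNγ (T3+IFNγ minus T3, log2 scale, vertical axis) at 8, 24, 48 and 96 h for activators, chains, and the invariant chain with the loading genes, with bars for the SE of the limma fit. Ciita 1379381_at starts at 3.38 and falls to 2.24, most chain sets gain from 8 to 24 h, Cd74 goes from 2.21 to 5.89, and 2 RT1-Ba sets stay near 0.

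The timing of activator and targets was compared as a step, the change with IFNγ at 24 h minus that at 8 h, which is an interaction term of the fit. Cd74, RT1-DMb and 5 of the 9 chain probe sets had a called gain, and Ciita did not. The step was called higher for 7 of the 15 probe sets, against 0.261% of all probe sets and against 4.98% of the 1505 probe sets called higher with IFNγ at 8 or 24 h. None of the 15 was called lower. Cd74 had the largest step, 3.67 (SE 0.53, limma adjusted p = 0.000672), with 3.11, 3.73 and 4.18 in donors 1, 2 and 3. It was 2.86 for RT1-Db1 1370383_s_at and 2.45 for RT1-Da (limma adjusted p = 2.73e-05 and 0.000119). For RT1-Ba the steps were 2.40 (1370822_at) and 2.21 (1377334_at), with limma adjusted p of 0.0145 and 0.00358. RT1-Bb 1371065_at had a step of 2.00 (limma adjusted p = 0.000923) and RT1-DMb one of 1.52 (limma adjusted p = 0.0405). All of these were above 0 in 3 of 3 donors, and in every one of them donor 1, which had the highest T3+IFNγ signal of most chains at 8 h, had the smallest step.

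Ciita 1379381_at had a step of −0.43, not called (95% interval −0.96 to 0.11, limma adjusted p = 0.891), with −0.46, −0.84 and 0.02 in the 3 donors. Its other set had −0.27 (limma adjusted p = 0.975) and Rfx5 0.15 (limma adjusted p = 0.998). RT1-DMa, with 0.88, RT1-Db1 1370382_at, with 1.0, and RT1-Bb 1371033_at, with 1.88, were not called (limma adjusted p = 0.192, 0.0957 and 0.165). With the donors as replicate blocks all 3 were called (limma adjusted p = 0.0297, 0.0432 and 0.0346), so that 10 of the 15 were. The step of RT1-DMa came largely from lower T3 signals, with group means of 8.21 at 8 h and 7.45 at 24 h. Its T3+IFNγ means were 9.72 and 9.84, and in donor 1 that signal fell from 10.001 to 9.55. Within each donor, the step of Cd74 exceeded that of Ciita 1379381_at by 3.57, 4.56 and 4.16 (mean 4.10 ± 0.50). For the other chain and loading probe sets called at 24 h, the mean excess ran from 1.30 ± 0.30 (RT1-DMa) to 3.28 ± 0.85 (RT1-Db1 1370383_s_at). Each was above 0 in 3 of 3 donors, but being called at 24 h favours a larger step. The level RT1-Ba sets also exceeded Ciita in 3 of 3 donors, by 0.47 ± 0.13 (1381593_x_at) and 0.50 ± 0.09 (1392334_at). Part of each excess in donors 1 and 2 is thus the step of Ciita itself, which was below 0 there. The excess is given without a test, since 3 donors allow no p below 0.25 in a two-sided exact sign permutation. The number called rests on the donors kept: 6 of the 15 without donor 1, 3 without donor 3 and 0 without donor 2, where 7 of all 31042 probe sets were called higher. Without the T3+IFNγ arrays of donor 2 at 8 and 24 h, 5 were called, and RT1-Ba 1370822_at and RT1-DMb were lost (limma adjusted p = 0.0519 and 0.271).

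**Figure D4:**
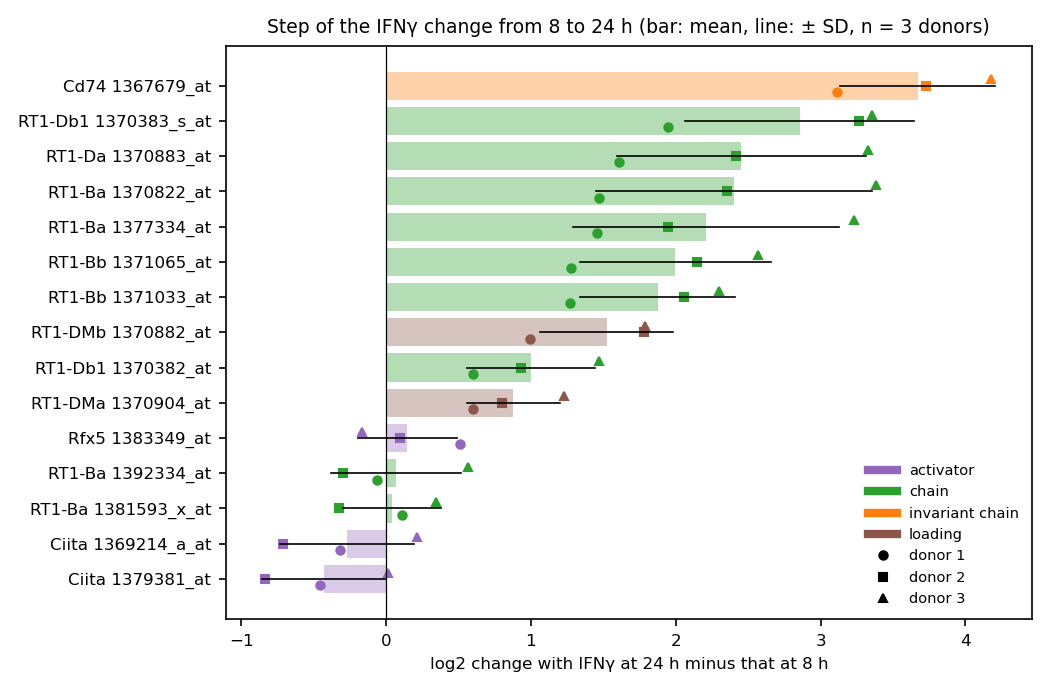
Step of the IFNγ change from 8 to 24 h (log2 scale, horizontal axis) for the 15 probe sets, with bars for means, black lines for ± SD, and points for 3 donors. Cd74 has the highest mean, 3.67, the Ciita sets have the lowest, −0.43 and −0.27, and the points of the chains called at 24 h, Cd74 and both loading genes all lie to the right of 0.

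From 24 to 96 h the changes of the chains were smaller but the decline was not called. The step from 24 to 96 h was called for none of the 15 by limma, beside 1.14% of all probe sets called lower. An unadjusted limma p under 0.05 was seen for 5 of the 15, 4 of them lower, and the share of all probe sets at that limit was not counted. RT1-Da came nearest, with −1.09 (SE 0.31, limma adjusted p = 0.0727) and with −0.94, −1.20 and −1.15 in the 3 donors. With the donors as replicate blocks it was called (limma adjusted p = 0.0439), and without donor 1 it was called too (limma adjusted p = 0.0175). Ciita 1379381_at had −0.72 (limma adjusted p = 0.224), lower in 3 of 3 donors. Cd74 (0.20), RT1-DMa (0.07) and RT1-DMb (−0.11) had small steps with limma adjusted p from 0.948 to 0.961.

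Without IFNγ, no chain, Cd74 or Ciita probe set was called changed in T3 cultures against PDGF, while Rfx5 and the DM genes changed. In T3 cultures against PDGF, Rfx5 was called higher at 8 h with 0.87 (SE 0.15, limma adjusted p = 0.000932; background 4.17% higher), at 24 h with 0.68 (limma adjusted p = 0.00112; background 13.6% higher) and at 48 h with 0.45 (limma adjusted p = 0.0231; background 14.9% higher). At 96 h it was at −0.12, not called (limma adjusted p = 0.565). Without donor 2 the call was lost at 8, 24 and 48 h (limma adjusted p = 0.0581, 0.0701 and 0.264), and without donor 3 at 24 and 48 h (0.0981 and 0.185). RT1-DMa was called lower at 48 h, by −1.05 (SE 0.18, limma adjusted p = 5.74e-05; background 18.5% lower), and at 96 h, by −1.14 (limma adjusted p = 1.27e-05; background 22.8% lower), and its PDGF signals of 7.63, 7.79 and 8.00 lay above all T3 signals at those times. RT1-DMb was called lower at 96 h, by −0.65 (SE 0.24, limma adjusted p = 0.031), and this was lost without donor 1 or donor 3. With the donors as replicate blocks, RT1-DMb was also called lower at 48 h (−0.54, limma adjusted p = 0.0427), and RT1-Ba 1370822_at (0.66, limma adjusted p = 0.0495) and RT1-Bb 1371033_at (0.76, limma adjusted p = 0.0465) were called higher at 96 h. No T3 signal of either reached the lowest T3+IFNγ signal of 24 h or later.

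The other genes of the pathway were read from the brightest probe set of each. Upstream of Ciita, of 9 measured inducers and signal carriers, 5, 6, 7 and 7 were called higher at 8, 24, 48 and 96 h, with medians of 0.88, 0.77, 0.70 and 0.73. Irf1, the factor that opens the IFNγ promoter of Ciita, rose by 5.31 at 8 h and 6.36 at 48 h, and the feedback inhibitor Socs1 rose by 3.10 at 8 h. The receptor genes changed little, with Ifngr1 not called and Ifngr2 called at 48 h (0.70) and 96 h (0.57).

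Of 11 measured regulators and promoter partners of Ciita, 3, 1, 4 and 0 were called higher at the 4 times and none lower, beside 2.7%, 4.28%, 5.64% and 5.51% of all probe sets, with medians of 0.11, 0.19, 0.10 and 0.10. Those called at 8 h were Nfya, the NF-Y subunit, with 0.60, the acetyltransferase Kat2b with 0.55, and Prdm1, a repressor that can act on Ciita, with 0.79, and at 48 h Ep300 joined them with 0.34. Rfxap and Rfxank, which complete the RFX complex, were not called at any time, with changes between −0.13 and 0.09.

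Genes that supply peptides or remove class II from the surface were called only from 24 h on. Of 9 measured, 0, 3, 4 and 3 were called higher and none lower. Ctss, the protease that trims the invariant chain, changed by 0.68 at 8 h, not called, and was called higher at 24 h with 2.29 and at 96 h with 3.88. Marchf1, a ubiquitin ligase that removes class II from the surface, was called at 24 h with 1.10 and at 48 h with 2.06, the thiol reductase Ifi30 at 24 h with 1.21, and the cathepsin Ctsz at 48 h with 1.78. The cathepsin Ctsl was not called with IFNγ. Of 5 measured co-stimulatory and adhesion genes, 1, 1, 2 and 2 were called higher: Icam1, by 1.55 at 8 h, and Cd40, by 0.85 at 48 h. Cd80 and Cd86, the main partners of CD28, were not called, with changes of −0.06 to 0.19 and 0.70 to 1.01.

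Class I genes gave a comparison in the same cultures. All 11 measured genes of class I assembly and peptide supply were called higher at each time, with medians of 3.14, 3.04, 3.75 and 3.69, and their median step from 8 to 24 h was 0.38, with Psmb9 (1.49) and Psme1 (0.91) called. The median step of the 15 class II probe sets was 1.52, beside −0.01 for all probe sets. Tap1 had 4.76 at 8 h and 5.43 at 24 h, and Nlrc5, the class I counterpart of Ciita, had 4.24 and 4.61. The difference between the lists was not tested. This class I list held no RT1 gene, so the smaller median step does not describe class I genes in general. The RT1 class I genes named below for their likeness to Cd74 also had larger changes at 24 h than at 8 h. RT1-A had 1.80 and 4.75, RT1-CE16 1.72 and 3.29, RT1-N3 1.36 and 3.33, and RT1-CE5 1.04 and 3.25.

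Likeness was measured by Pearson's r over the 27 arrays, among 6135 probe sets with group means spanning at least 1 on the log2 scale. The points share the arrays and the treatment, so a high r is a description. Ciita 1379381_at was most like Nlrc5 (r = 0.979), Hpgd (0.977), Parp14 (0.975), Ogfr (0.974) and Parp9 (0.973). Its r with the member probe sets was highest for RT1-Da (0.936), and it was 0.809 for Cd74 and near 0 for the level RT1-Ba sets. Cd74 was most like Plac8 (r = 0.989) and the class I genes RT1-CE16 (0.988), RT1-A (0.987), RT1-N3 (0.982) and RT1-CE5 (0.98), and among members like RT1-Db1 1370383_s_at (0.977) and RT1-Bb 1371065_at (0.969).

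Markers of the labelled cells were present: the OPC and oligodendrocyte lists had log2 summed signals of 13.1 to 14.1 and 11.3 to 15.9. Astrocyte markers had signal too, with sums of 5 measured markers of 12.6 to 14.1. Microglia and macrophage markers had signal as well, though in PDGF 4 of 16 had group means below the median of all values. Microglia make class II molecules after IFNγ, and the summed signal of 16 measured microglia and macrophage markers moved with the treatment. It was 10.95, 11.95 and 12.03 in PDGF and fell with T3 to 9.90, 9.41 and 9.79 at 96 h. With T3+IFNγ it was 11.53, 11.48 and 12.77 at 8 h, then 12.13, 11.70 and 13.29 at 24 h. At 48 h it was 11.91, 11.38 and 13.54, and by the last time 12.18, 10.84 and 12.91. Of the 16, 1, 4, 5 and 8 were called higher with IFNγ at the 4 times, among them C1qb (3.11 at 24 h). The shares of all probe sets were 2.7%, 4.28%, 5.64% and 5.51%. With T3 at 96 h 12 of the 16 were called lower than in PDGF, beside 22.8% of all probe sets. P2ry12 was called higher at every time (1.72 at 8 h), and C1qa, C1qb and C1qc from 24 h on. At 96 h Aif1 (3.16), Fcer1g (2.39), Tyrobp (2.21) and Cd14 (1.91) were called too. Tmem119, Cx3cr1, Trem2, Itgam, Cd68, Csf1r, Ptprc and Laptm5 were not called with IFNγ. Group means were 5.79 to 5.90 for Cx3cr1 and 5.06 to 5.58 for Tmem119, below the median of all values (5.99).

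Beside these values, the PDGF arrays, from cultures without IFNγ, had Cd74 signals of 4.40 to 4.63. Their microglia sum lay below all 4 T3+IFNγ sums of the same donor in donors 1 and 3, and above all 4 in donor 2. With T3+IFNγ, donor 3 had the highest microglia sum and the highest Cd74 signal at each time. Donor 2 had the lowest sum at each time. At 96 h donor 2 also had the lowest signals of Cd74, RT1-DMa, RT1-DMb and both RT1-Bb probe sets. The same held for both RT1-Db1 probe sets and for RT1-Ba 1370822_at. For RT1-Ba 1377334_at, Rfx5 and both Ciita probe sets, donor 1 was lowest at 96 h. RT1-Da followed the order of the microglia sums at 48 and 96 h, with donor 3 highest (11.90 and 11.80) and donor 2 lowest (11.49 and 11.42). At 24 h donor 3 was highest and donor 1 lowest, and at 8 h donor 3 was lowest. The part of microglia or of astrocytes in the class II values was not tested. Of 2 measured B cell markers none was called with IFNγ, and of 4 dendritic cell markers 1, 0, 1 and 0 were called higher. None of 3 vascular markers was called, and of 6 T cell markers at most 1 was called in a direction at any time. Of 5 astrocyte markers 0, 1, 1 and 1 were called higher, as were 0, 1, 1 and 1 of 5 OPC markers. Of 5 oligodendrocyte markers 0, 2, 3 and 3 were called lower, beside 0.921%, 4.38%, 6.35% and 4.58% of all probe sets.

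**Figure D5:**
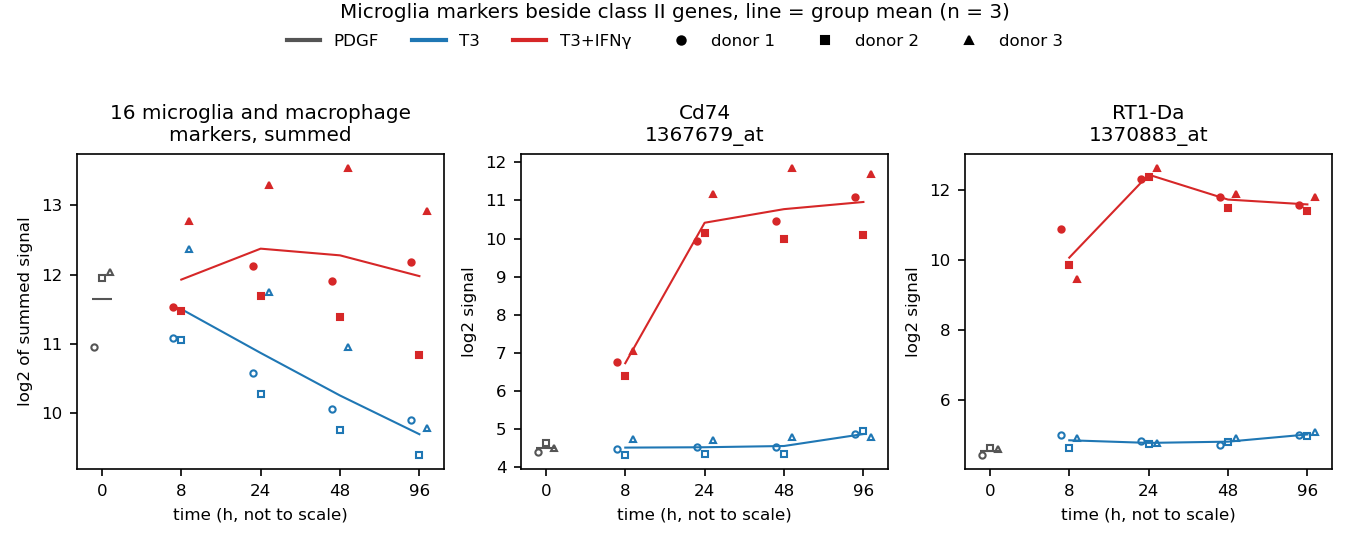
Log2 of the summed signal of 16 microglia and macrophage markers (left) beside the log2 signals of Cd74 and RT1-Da in PDGF (grey), T3 (blue) and T3+IFNγ (red) against time in h, with points for 3 donors and lines for group means. The marker sum falls with T3 to between 9.41 and 9.90 at 96 h and in PDGF it lies within the range of the T3+IFNγ cultures. Cd74 and RT1-Da are low in all PDGF and T3 cultures, which had no IFNγ.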

How the data were processed

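Arrays were assigned to groups and donors from their labels. The authors deposited RMA signals on the log2 scale (background corrected, quantile normalized), and the submitters' notes name RMA and limma without versions. The values were used as deposited. Of 31099 probe sets, 57 are controls, 20832 have 1 symbol in the platform annotation, 436 several and 9831 none. R 4.3.3 with limma 3.58.1 (lmFit, eBayes) fitted 1 mean per group over all 27 arrays, with Benjamini-Hochberg adjustment over 31042 probe sets in each comparison. Python 3.11.15, pandas 2.3.3, NumPy 2.4.6 and matplotlib 3.10.9 made tables and plots, and the steps were tested on simulated data. The members and lists were chosen with earlier results of these data known. All member probe sets and all measured microglia and macrophage markers are named. Of the other gene lists some members are named, for a large change or for their role. Called genes with larger changes can be left out, such as Psmb8 in the class I list, with 5.34 at 8 h. For the other cell type marker lists only counts or sums are given. Labels give the donor, so replicate numbers pair the arrays: deviations from group means correlated with a median r of 0.295 within donors and −0.151 between them. Labels do not say whether a donor is 1 pup or a pool. No arrays were identical (highest correlation 0.9967). Alternatives were a replicate block, the brightest probe set, a filter on low values, median centring, an intensity trend, leaving out donors or arrays, and fits of 2 groups.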

Additional observations from a re-analysis of the deposited data

Results flagged for a closer look

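Probe sets whose change with IFNγ differed between 24 h and 8 h by the interaction term of the limma fit were singled out for a closer look. The step was 2.45 for RT1-Da 1370883_at, 2.86 for RT1-Db1 1370383_s_at, 2.40 for RT1-Ba 1370822_at, 2.21 for RT1-Ba 1377334_at, 2.00 for RT1-Bb 1371065_at, 3.67 for Cd74 1367679_at and 1.52 for RT1-DMb 1370882_at, each above 0 in 3 of 3 donors. Without donor 2 none of them was called, with steps from 1.39 (RT1-DMb) to 3.65 (Cd74) and limma adjusted p from 0.0824 to 0.501, and 7 of all 31042 probe sets were called.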

How the results depend on the processing

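With the brightest probe set of each gene, 6, 7 and 8 of the 9 genes were called higher with IFNγ at 8, 24 and 96 h and 4 had a called step from 8 to 24 h. This setting tests 1 probe set per gene, so these counts are lower by construction. With the donors as replicate blocks, 4 of the 15 member probe sets were called with T3 against PDGF at 96 h (2 higher, 2 lower) and 1 lower in the step from 24 to 96 h, beside the single calls named above, and no count with IFNγ at a single time moved. Leaving out each donor in turn gave 8 to 10, 11 to 13, 11 to 12 and 10 to 12 called with IFNγ at the 4 times, 0 to 1, 0 to 1, 1 to 2 and 1 to 3 with T3 against PDGF, 0 to 6 for the step from 8 to 24 h, 0 to 2 for the step from 24 to 96 h, and a median excess over the step of Ciita of 2.07 to 2.68. The filter on low values, median centring, the intensity trend, the fits of 2 groups and the fit without the T3+IFNγ arrays of donor 2 at 8 and 24 h kept every count within 1.5 times, though not every call. Directions turned only for changes that were not called. Leaving out each donor in turn, RT1-Ba 1381593_x_at ran from −0.0844 to 0.0701 at 8 h, −0.037 to 0.142 at 24 h, −0.271 to 0.0046 at 48 h and −0.107 to 0.227 for the step from 8 to 24 h, RT1-Ba 1392334_at from −0.0756 to 0.155 at 8 h, −0.0241 to 0.177 at 24 h and −0.179 to 0.252 for that step, and the step of Rfx5 from −0.0338 to 0.303. Without the 2 arrays of donor 2, the RT1-Ba values at 8 h were 0.0104 and −0.0242. The cause was not tested. With 3 donors, a change that was not called may still be present.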
